A study of Mus musculus with 6 samples.

Results

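10 genes of nucleic acid sensing and interferon reception were taken from the 22601 genes of the deposited count table by their symbols. They were the receptor chains Ifnar1, Ifnar2 and Ifngr1, the sensors Ifih1 and Cgas, the adaptor Mavs, the kinase Tbk1, the transcription factors Irf3 and Irf5, and the interferon gene Ifnb1. All 10 symbols had a row, and 9 had enough counts to be compared between genotypes. Ifnb1 did not. No difference between WT and Slc37a2 KO libraries passed the test for any of the 9, while 6 of the 9 shared their 3 highest libraries, which came from both genotypes.

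The libraries are RNAseq read counts of 3 wild-type (WT) and 3 Slc37a2 KO mice, all aged 11 weeks in the column headings. The KO mice are homozygous for a gene-trap allele (tm2a) that came from 1 embryonic stem cell clone and is carried in every cell, and the colony was kept on C57BL/6N. The labels describe osteoclasts, the bone-resorbing cells, grown from bone marrow macrophages for 5 days with 10 ng/ml of the osteoclast-inducing cytokine RANKL and 2 ng/ml of the macrophage growth factor M-CSF in both genotypes, and the study's results section likewise speaks of osteoclasts, whereas its methods give RNA of whole femurs and tibias from mice of both sexes. Libraries are named here by the animal number of their heading, which begins with K for 1 animal of each genotype (WT K090 and KO K089) and with L for 2 of each (WT L080 and L082, KO L078 and L081), and every heading also carries the letter F. What these letters stand for is not given in the sources used here, and no sex was taken from them.

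Cells recognise misplaced nucleic acid through a relay of proteins. Cgas detects DNA in the cytosol and signals through Sting1, while Ifih1 (also called MDA5) and its relative Ddx58 (RIG-I) detect double-stranded RNA and signal through Mavs on mitochondria. Both routes converge on the kinase Tbk1, which phosphorylates Irf3, and on the related factor Irf5, and these factors switch on Ifnb1. The secreted interferon beta then binds the receptor pair Ifnar1 and Ifnar2 on the same and neighbouring cells, and signals from this receptor induce the interferon response genes, among them several of the sensors themselves. In osteoclast precursors RANKL is known to induce interferon beta, which restrains osteoclast formation, and interferon gamma does so through the receptor of Ifngr1 and Ifngr2.

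The promoters of the 10 genes differed in the short sequences through which interferon signalling is known to act. They were searched on both strands in RefSeq windows of GRCm38.p6 that run from 250 bases before to 50 after each start site, and all 10 genes had a window. The letters GAAANNGAAA, the core of the interferon-stimulated response element (ISRE), were in 1 of the 10 windows, that of Ifih1, and in 3.44% of all 32851 windows. The shorter site of interferon regulatory factors (IRF core), AANNGAAA, which every ISRE core contains, was in the windows of Ifih1 and Ifnb1 and in 23.9% of all windows. The letters TTCNNNGAA of the gamma-activated site (GAS) were in those of Ifnar1 (from base −5 to 4 around the start site) and Ifnar2 (from −214 to −206) and in 8.3% of all. The other 6 windows held none of these letters.

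The Ifih1 match is shown because it is the only ISRE core among the 10, and it lies past the start site, at bases 33 to 42, in exon 1 of the gene (chr2:62646206-62646235, minus strand, exon bounds from GENCODE M21). Capitals mark the run covered by the ISRE core and the overlapping IRF cores.
Ifih1: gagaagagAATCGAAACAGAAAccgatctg
The Ifnb1 window is shown for its 3 IRF cores, which begin 159, 139 and 126 bases before the start site (chr4:88522795-88523044, minus strand) and are in capitals.
Ifnb1: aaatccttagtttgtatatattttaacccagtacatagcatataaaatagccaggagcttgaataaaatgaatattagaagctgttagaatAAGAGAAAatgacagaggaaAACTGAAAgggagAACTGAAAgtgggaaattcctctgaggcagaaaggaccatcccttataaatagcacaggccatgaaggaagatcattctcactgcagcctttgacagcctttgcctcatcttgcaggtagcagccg
The windows of Cgas (chr9:78443238-78443487, minus strand) and Tbk1 (chr10:121586795-121587044, minus strand) are shown as a sensor and a kinase whose windows have none of the 3 motifs, so neither has capitals.
Cgas: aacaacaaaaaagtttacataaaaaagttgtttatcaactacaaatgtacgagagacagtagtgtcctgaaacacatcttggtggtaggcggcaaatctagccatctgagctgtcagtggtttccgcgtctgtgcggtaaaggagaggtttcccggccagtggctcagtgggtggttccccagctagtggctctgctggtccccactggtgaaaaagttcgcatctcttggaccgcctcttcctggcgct
Tbk1: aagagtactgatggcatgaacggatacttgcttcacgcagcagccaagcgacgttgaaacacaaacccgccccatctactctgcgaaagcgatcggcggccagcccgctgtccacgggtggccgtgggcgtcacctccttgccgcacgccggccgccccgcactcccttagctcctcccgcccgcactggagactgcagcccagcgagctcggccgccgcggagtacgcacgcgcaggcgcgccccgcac
The Tbk1 window was the richest of the 10 in CpG dinucleotides, with 37, and that of Ifnb1 the poorest, with 3, while Cgas had 16 and Ifih1 14. Their GC content ran from 42.7% in Ifnb1 to 74.7% in Irf5. A match of letters is a description of the sequence and does not show that a factor binds there.

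Each library held between 27552183 and 42522292 counts. No 2 of them were copies of each other, since even the closest pair differed by more than counting noise (chi-square over degrees of freedom, 5.18). Levels are given as scaled CPM, the counts of a gene relative to the tested counts of its library after TMM scaling (factors 0.931 to 1.06). Fold changes are log2 of KO over WT from edgeR's quasi-likelihood test. The p-values were adjusted by the Benjamini-Hochberg method across the 13483 genes that passed its filter on low counts. Slc37a2 itself was at 1857, 2151 and 2440 scaled CPM in WT libraries and at 45.3, 32.1 and 36.9 in KO libraries, a log2 fold change of −5.82 (SE 0.20, adjusted p = 0.000707, edgeR's quasi-likelihood test). It was the only gene called at an adjusted p below 0.05, which makes 0.00742% of the genes tested. All 10 osteoclast markers listed were above 1 CPM, led by Acp5, Ctsk and Mmp9, as were all 7 macrophage markers. The summed level of the osteoclast list was 38340, 50560 and 57810 scaled CPM in WT libraries K090, L080 and L082 and 75630, 41850 and 67300 in KO libraries K089, L078 and L081. Of other cell types, the neutrophil markers summed to at most 1.12 scaled CPM and the lymphoid markers to at most 0.270, and among dendritic cell markers only Zbtb46 was above 1 CPM, while the stromal list (Col1a1 and others) ran from 668.5 to 1868 scaled CPM.

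The 3 receptor chains were well expressed in both genotypes. Ifnar1, the low-affinity chain of the type I interferon receptor (chr16:91485238-91507441, plus strand, GRCm38), was at 176, 158 and 126 scaled CPM in WT libraries K090, L080 and L082 and at 132, 167 and 137 in KO libraries K089, L078 and L081. The groups overlapped, with the highest library a WT and the lowest also a WT. The means were 153 ± 25.3 and 145 ± 19.1 scaled CPM (SD, n = 3 each), a log2 fold change of −0.07 (95% interval −0.43 to 0.29, adjusted p = 0.969, edgeR's quasi-likelihood test). The interval limits the KO level to between 0.741 and 1.22 times that of WT. In bulk RNA, fewer cells of a type and less RNA per cell cannot be told apart, for this gene or for those that follow. Ifnar2, the chain that binds the ligand most tightly (chr16:91372783-91405589, plus strand), was at 64.2, 61.8 and 52.2 scaled CPM in WT and at 51.3, 68.6 and 53.7 in KO libraries in the same order. Its groups overlapped as well, and KO library L078 was the highest of the 6. Its log2 fold change was −0.04 (95% interval −0.37 to 0.29, adjusted p = 0.974, edgeR's quasi-likelihood test). Of its exon bases, 315 are shared with Gm21970 on the same strand, so reads there could belong to either gene.

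The ratio of the 2 chains of this receptor hardly moved. Ifnar1 over Ifnar2 in scaled CPM was 2.74, 2.55 and 2.41 in WT libraries and 2.58, 2.44 and 2.54 in KO libraries. The means of the ratio were 2.56 ± 0.165 and 2.52 ± 0.0734 (SD, n = 3 each, exact permutation test, two-sided, p = 0.8, where 0.1 is the smallest p that 3 against 3 libraries can give). The 2 genes lie near each other on chromosome 16 and had the same 3 libraries on top, WT K090, WT L080 and KO L078.

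Ifngr1, the ligand-binding chain of the interferon gamma receptor (chr10:19591949-19610229, plus strand), varied more than the type I receptor chains. It was at 101, 94.9 and 60.3 scaled CPM in WT libraries K090, L080 and L082 and at 61.8, 101 and 69.3 in KO libraries K089, L078 and L081. WT K090, WT L080 and KO L078 lay between 94.9 and 101 and the other 3 libraries between 60.3 and 69.3, so the groups overlapped over almost their whole range. The log2 fold change was −0.14 (95% interval −0.75 to 0.47, adjusted p = 0.969, edgeR's quasi-likelihood test). Ifngr2, its partner chain, did not share this variation, with 197, 195 and 199.6 scaled CPM in WT and 225, 189.5 and 232 in KO libraries. Ifngr1 over Ifngr2 therefore ran from 0.275 in KO K089 to 0.533 in KO L078, and the WT and KO ratios did not differ beyond their spread (exact permutation test, two-sided, p = 0.7).

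**Figure D1:**
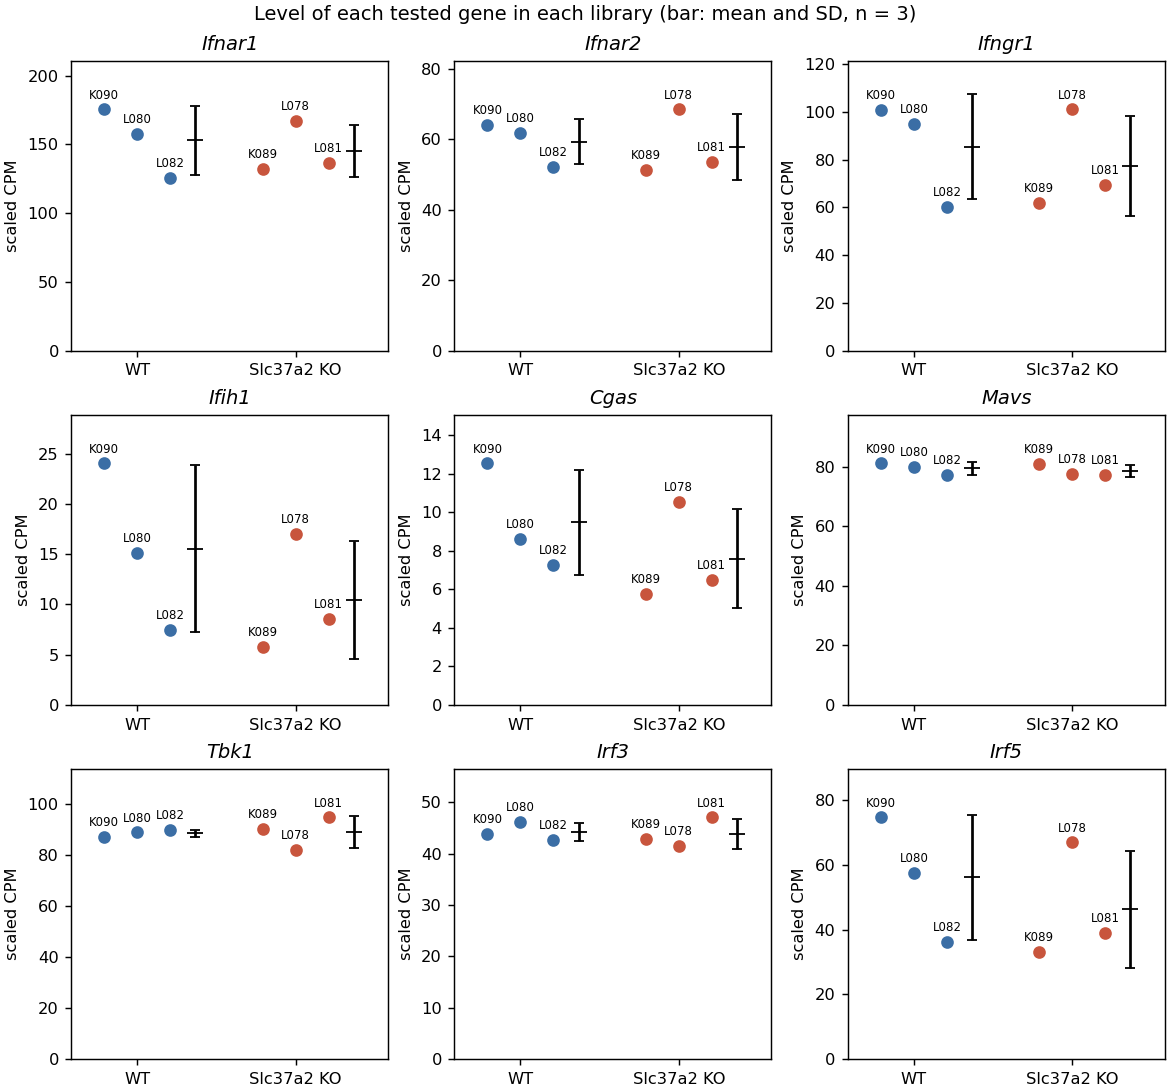
Level of the 9 tested genes in each library, in scaled CPM on linear axes that start at 0, with WT libraries in blue, Slc37a2 KO libraries in red, and bars for the mean and SD of 3 libraries. The groups overlap in every panel, Ifih1 runs from 5.76 in KO K089 to 24.03 in WT K090, and the points of Mavs stay between 77.2 and 81.2.

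The sensors had the lowest levels of the tested genes, and Ifih1 was the most variable. Ifih1, the sensor of long double-stranded RNA (chr2:62595798-62646255, minus strand), was at 24.03, 15.2 and 7.48 scaled CPM in WT libraries K090, L080 and L082 and at 5.76, 17.0 and 8.59 in KO libraries K089, L078 and L081. The highest library was a WT and the lowest a KO, but KO L078 was above 2 of the 3 WT libraries, and the highest library was 4.17 times the lowest. The means were 15.6 ± 8.29 and 10.5 ± 5.87 scaled CPM (SD, n = 3 each), a log2 fold change of −0.57 (95% interval −1.85 to 0.71, adjusted p = 0.969, edgeR's quasi-likelihood test). At this spread, KO levels from 0.278 to 1.64 times those of WT lie within the interval. Without KO library L078 its log2 fold change was −1.12 and without WT library K090 it was −0.11, so its size depended on which of these was kept, and it was called in neither fit.

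Cgas, which makes the second messenger cGAMP when it meets cytosolic DNA (chr9:78430526-78443237, minus strand), had the same 3 libraries on top with a smaller range. Its levels were 12.5, 8.62 and 7.25 scaled CPM in WT libraries and 5.76, 10.6 and 6.47 in KO libraries. KO L078 was again above 2 of the 3 WT libraries, so the groups overlapped. The log2 fold change was −0.32 (95% interval −1.05 to 0.42, adjusted p = 0.969, edgeR's quasi-likelihood test), and it was −0.63 without KO L078 and −0.06 without WT K090. An exon stretch of 201 bases is shared with Gm8093 on the opposite strand. Whether the counting used strand is not given in the sources used here, so reads of that stretch cannot be told apart.

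The transcripts of the adaptor and the kinase that relay the signal were nearly constant. Mavs, the mitochondrial adaptor of Ifih1 and Ddx58 (chr2:131234063-131248025, plus strand), was at 81.2, 80.03 and 77.2 scaled CPM in WT libraries and at 80.96, 77.8 and 77.4 in KO libraries. All 6 values lay within 1.05-fold of each other, and the WT and KO values interleaved. The log2 fold change was −0.01 (95% interval −0.14 to 0.11, adjusted p = 0.975, edgeR's quasi-likelihood test), which limits the KO level to between 0.907 and 1.08 times that of WT. The log2 range of Mavs over the 6 libraries, the highest minus the lowest, was 0.07, and only 0.497% of the tested genes had a smaller or equal one.

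Tbk1, the kinase that acts behind both Mavs and Sting1 (chr10:121546455-121586787, minus strand), was at 87.1, 88.9 and 89.9 scaled CPM in WT libraries and at 90.4, 82.2 and 94.8 in KO libraries. The 3 WT values lay inside the range of the KO values. The means were 88.6 ± 1.41 and 89.1 ± 6.38 scaled CPM (SD, n = 3 each), a log2 fold change of 0.01 (95% interval −0.16 to 0.17, adjusted p = 0.988, edgeR's quasi-likelihood test). Unlike the sensors, Tbk1 was lowest in KO library L078. The ratio of Cgas to Tbk1 ran from 0.0637 in KO K089 to 0.144 in WT K090. That of Ifih1 to Mavs ran from 0.0712 to 0.296 in the same 2 libraries. Neither ratio differed between genotypes beyond its spread (exact permutation test, two-sided, p = 0.5 and 0.6).

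The 2 transcription factors differed in how far they moved. Irf3, the factor that Tbk1 activates (chr7:44997648-45002848, plus strand), was at 43.9, 46.2 and 42.8 scaled CPM in WT libraries and at 42.9, 41.5 and 47.1 in KO libraries. Its values interleaved within 1.13-fold, and the log2 fold change was −0.01 (95% interval −0.19 to 0.16, adjusted p = 0.980, edgeR's quasi-likelihood test). Irf5, a factor known for inflammatory cytokine and interferon genes in myeloid cells (chr6:29526625-29541871, plus strand), was at 74.7, 57.6 and 36.2 scaled CPM in WT libraries and at 33.1, 67.0 and 38.9 in KO libraries. The highest library was 2.25 times the lowest, WT K090 and KO L078 led, and the groups overlapped. Its log2 fold change was −0.28 (95% interval −1.11 to 0.56, adjusted p = 0.969, edgeR's quasi-likelihood test), and it was −0.64 without KO L078 and −0.01 without WT K090. Irf3 shares 88 exon bases with Bcl2l12 and Irf5 411 with Tnpo3, in both cases on the opposite strand.

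Ifnb1, the interferon gene at the end of the relay (chr4:88522025-88522774, minus strand, a single exon), was hardly detected. It had 1 count in WT library L080, 1 count in KO library L078 and 0 in the other 4. A count of 0 allows up to 3 counts, which is 0.0764 to 0.102 CPM in the libraries at 0. Over the 3 libraries of a genotype together, 1 count allows up to 0.0567 CPM in WT and 0.0549 CPM in KO (upper end of an exact 95% Poisson interval, for counting error only). No fold change is given, and a difference was not detectable at this depth. The 19 other interferon genes listed (the alpha family, Ifng, Ifne, Ifnk and the lambda genes) were not analysed here.

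**Figure D2:**
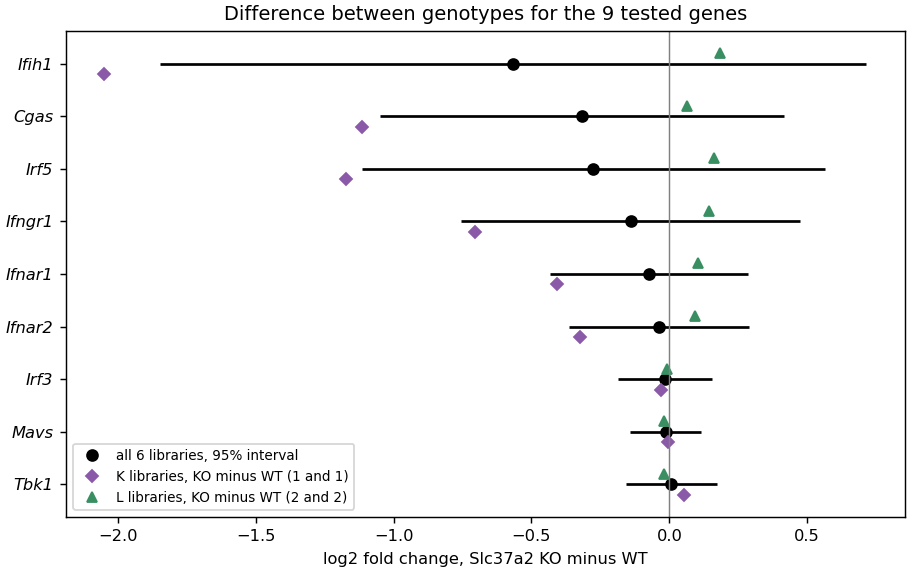
Log2 ratio of Slc37a2 KO to WT levels for the 9 tested genes, with circles and lines for the fit of all 6 libraries and its 95% interval, diamonds for the K libraries alone and triangles for the L libraries alone. All 9 intervals include 0, and the diamonds and triangles lie on opposite sides of 0 for 7 genes, with Ifih1 at −2.05 in the K libraries and 0.18 in the L libraries.

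None of the 9 genes was called by edgeR's quasi-likelihood test, its likelihood ratio test or DESeq2's Wald test, against 0.00742% of all genes in the first of these, and none reached an unadjusted p below 0.05 in it, against 0.712% of all genes. No gene of the 9 had all KO libraries below all WT libraries (2.81% of all genes) or above them (1.5%). The KO mean was the lower one for 8 of the 9 genes with TMM scaling and for 6 of 9 with DESeq2's size factors, because Irf3 and Mavs crossed 0. Their median log2 fold change was −0.07, beside −0.02 over all tested genes, of which 7584 (56.2%) were lower in KO libraries. Both turned on single libraries: 4 of 9 were lower with a median of 0.01 without KO K089, 6 of 9 with −0.004 without WT K090, and 7 of 9 with −0.19 without KO L078. Between the 1 WT and 1 KO library of the K animals Ifih1, Irf5, Cgas and Ifngr1 differed by −2.05, −1.17, −1.11 and −0.71 log2. Between the L animals, with 2 libraries of each genotype, the same 4 genes differed by 0.18, 0.16, 0.06 and 0.15 log2, the opposite direction. A fit with the letter as a term, added after seeing the data, called 0 of the 9 genes.

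Per length of exon, the receptor and relay genes stood well above the sensors. In CPM per kilobase of GENCODE M21 exon, averaged over the 6 libraries, the order of the levels was Ifngr1 at 28.6, Ifnar1 at 25.1, Mavs at 23.6, Tbk1 at 22.7, Irf5 at 17.6, Ifnar2 at 17.6, Irf3 at 12.8, Cgas at 2.07, Ifih1 at 1.59 and Ifnb1 at 0.0128. The ranges over the libraries overlapped for every pair of neighbours from Ifngr1 down to Ifnar2, so neighbouring levels were not separated by more than their spread. The range of Ifnar2 (15.4 to 20.59) still lay below those of Ifngr1 (21.17 to 35.48), Ifnar1 (21.14 to 29.55), Mavs (23.08 to 24.27) and Tbk1 (21.02 to 24.24). Ifnar2 was above Irf3, Irf3 above Cgas and Ifih1 above Ifnb1 in all 6 libraries without overlap. The ranges of Cgas (1.40 to 3.04) and Ifih1 (0.706 to 2.94) overlapped, although Cgas was the higher in each of the 6 libraries.

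Most of the 9 genes shared a pattern across libraries that cut across the genotypes. WT K090, KO L078 and WT L080 were the 3 highest libraries for 6 of the 9 (Ifnar1, Ifnar2, Ifngr1, Irf5, Ifih1 and Cgas), which is 66.7%, and for 22.6% of all tested genes. These libraries were noticed after the values were seen, and the order is given as a description. As a deviation from its own mean, Ifih1 was at 1.06 log2 in WT K090, 0.40 in WT L080, 0.57 in KO L078, −0.42 in KO L081, −0.62 in WT L082 and −0.99 in KO K089. Ifnar1 kept the same sign in each library within a narrower band, from 0.25 in WT K090 to −0.24 in WT L082. Irf3, Tbk1 and Mavs did not follow this order and stayed between −0.11 and 0.10 log2 of their means in every library.

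**Figure D3:**
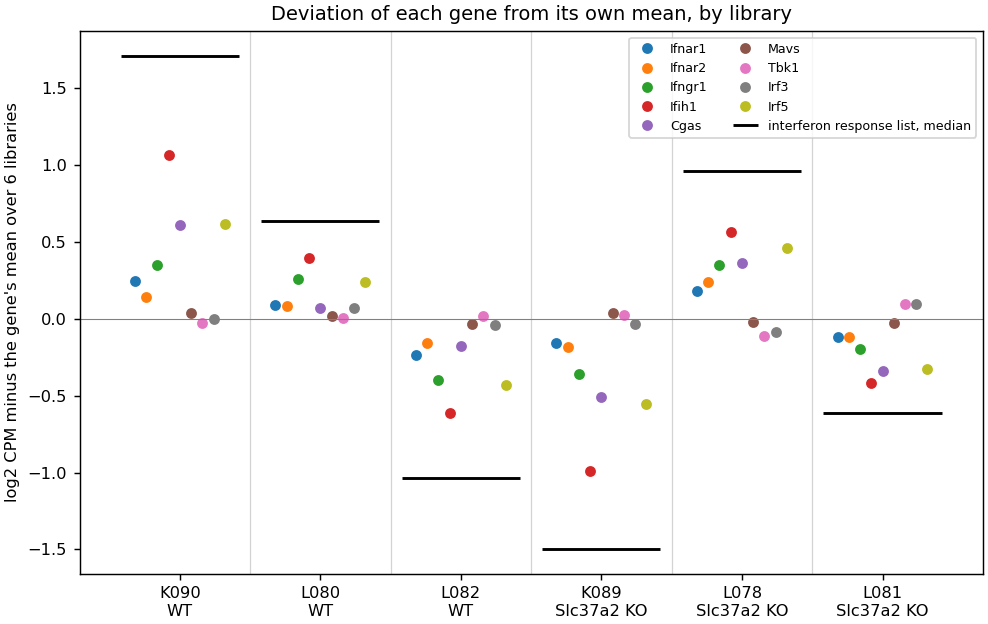
Deviation of the 9 tested genes from their own means over the 6 libraries, in log2 CPM, by library, with a black line for the median of the 14 interferon response genes. Ifih1, Irf5, Cgas, Ifngr1, Ifnar1 and Ifnar2 are above 0 in WT K090, WT L080 and KO L078 and below 0 in the other 3 libraries, on the same side as the black line, which runs from 1.71 in WT K090 to −1.496 in KO K089.

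The interferon response genes, which lie downstream of Ifnar1 and Ifnar2, moved in the same libraries over a wider range. The list held 14 genes (Ifit1, Isg15, Mx1, Oas3, Rsad2 and others), all tested. None was called, beside 0.00742% of all tested genes. Beside 22.6% of all tested genes, all 14 were highest in WT K090, KO L078 and WT L080. Their median deviation was 1.71, 0.63 and −1.04 log2 in WT K090, L080 and L082 and −1.496, 0.96 and −0.61 log2 in KO K089, L078 and L081. Oas3, a sensor of double-stranded RNA that makes the activator of RNase L, was at 55.1, 31.4 and 6.07 scaled CPM in WT and 3.85, 31.8 and 11.2 in KO libraries. Rtp4 (33.2, 19.2 and 7.77, then 5.65, 23.9 and 8.70) and Oasl2 (37.8, 22.5 and 3.66, then 2.24, 23.9 and 6.15) were the next in mean level and took the same order. The median log2 fold change of the list was −0.81, between −0.98 and −0.65 for single genes, and it was −1.87 without KO L078 and −0.08 without WT K090. Of the 14 genes 10 had a promoter window, and 6 of those 10 held at least 1 ISRE core, which Ifih1 also has.

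Some macrophage markers were ordered in the same way. Adgre1 (F4/80), a macrophage surface marker, was at 312, 272 and 80.02 scaled CPM in WT K090, L080 and L082 and at 64.4, 262 and 95.8 in KO K089, L078 and L081. Mrc1, the macrophage mannose receptor, was at 96.2, 81.3 and 22.5 and at 14.3, 87.8 and 19.1 in the same order. In all, 5 of the 7 macrophage markers were highest in WT K090, KO L078 and WT L080 (Cd14, Itgam and Fcgr1 beside these), and the other 2 were not. Cd68, a lysosomal glycoprotein, was highest in KO K089, KO L081 and WT L082, and Csf1r, the receptor of M-CSF, in KO K089, KO L081 and WT L080. These 2 had the highest levels of the list and carried most of its sum, which ran from 4027 to 4718 scaled CPM. WT K090, KO L078 and WT L080 were together the 3 highest libraries for 0 of the 10 osteoclast genes, beside 22.6% of all tested genes. A single gene could still be high in 1 of them, as Calcr was highest in WT L080. The sum of the osteoclast list, led by Acp5, Ctsk and Mmp9, was lowest in WT K090 and KO L078, at 38340 and 41850 scaled CPM. The part of the cell mix in the levels of Ifih1, Cgas, Irf5 and the receptor chains was not tested.

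Among other genes of the pathway, chosen as lists, 56 of 76 were tested. By edgeR's quasi-likelihood test 0 were called, beside 0.00742% of all genes, and 0 had an unadjusted p below 0.05, beside 0.712%. In KO libraries 17 were higher and 39 lower (69.6%, beside 56.2% of all tested genes). The median log2 fold change of the 56 was −0.11. The 19 interferon genes were the main part of those not analysed. The median was −0.03 without WT K090, −0.04 without KO K089 and −0.22 without KO L078. All KO libraries were below all WT libraries for Zcchc3 and Trim56, 2 of the 56 genes (3.57%, beside 2.81% of all genes), and above them for Rnaseh2c (1.79%, beside 1.5%), and these 3 were named after their values were seen. The 3 highest libraries were WT K090, KO L078 and WT L080 for 27 of the 56 (48.2%, beside 22.6% of all tested genes).

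Several other sensors varied over a wide range. Of 11 genes of RNA sensing 4 were higher and 7 lower in KO libraries, with a median log2 fold change of −0.08 (−0.01 without WT K090, −0.16 without WT L082). The largest differences were those of Dhx58 (LGP2, a helicase that regulates Ifih1) at −0.73 (SE 0.73) and Ddx58 at −0.55 (SE 0.63), and Ddx58 ran over 2.42 log2 from 66.6 scaled CPM in WT K090 to 12.4 in KO K089. All 10 genes of DNA sensing were lower in KO libraries with TMM scaling and 9 with DESeq2's size factors (56.2% and 51.4% of all tested genes), with a median of −0.35 and 0 called. Without KO K089 it was 8 of 10 with a median of −0.125, without WT K090 the median was −0.14, without KO L081 −0.18, and without KO L078 −1.02 with 9 of 10 lower. Zbp1, a sensor of Z-form nucleic acid, was at −0.94 (SE 0.93), and Ifi204 at −0.71 (SE 0.71), although Ifi204 belongs to a family of near-identical copies whose reads could be split. Sting1, the adaptor of Cgas, was at 16.8, 15.0 and 8.51 scaled CPM in WT and 5.69, 18.7 and 8.94 in KO libraries, a log2 fold change of −0.27 (SE 0.47), and its groups overlapped.

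The genes listed with Tbk1 and the interferon regulatory factors differed in their spread. Among the 7 genes listed with Tbk1 (Ikbke, Tank, Azi2, Tbkbp1, Optn, Nfkb1 and Rela) 5 were higher and 2 lower in KO libraries. Their median log2 fold change was 0.04 (0.02 without WT K090, 0.09 without WT L082). Ikbke, the inducible relative of Tbk1, was at −0.43 (SE 0.66) with a log2 range of 2.28 over the 6 libraries, beside 0.21 for Tbk1, and the adaptor Tbkbp1 was at 0.14 (SE 0.16). All 6 other interferon regulatory factors were lower in KO libraries, beside 56.2% of all tested genes, and 0 were called, beside 0.00742%. Their median log2 fold change was −0.45. This median was −0.15 without WT K090, −0.23 without KO K089, −0.72 without WT L082 and −0.73 without KO L078. Irf7, which amplifies the interferon loop and is itself induced by interferon, was at 25.04, 11.8 and 3.21 scaled CPM in WT and 1.65, 14.5 and 4.45 in KO libraries, with a log2 fold change of −0.94 (SE 0.94) and a range of 3.87 log2, beside 0.18 for Irf3. Irf8, a factor of the macrophage lineage, was at −0.62 (SE 0.78).

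Of 14 genes of receptor signalling 5 were higher and 9 lower in KO libraries, with a median log2 fold change of −0.04, which crossed 0 to 0.01 without WT K090, WT L080 or KO K089 and was −0.11 without WT L082. Usp18, an interferon-induced inhibitor that acts at Ifnar2, was at 10.5, 5.90 and 0.931 scaled CPM in WT and 0.661, 5.59 and 1.31 in KO libraries, with a log2 fold change of −1.17 (SE 1.01). Stat2, a transcription factor of type I interferon signalling, was at −0.42 (SE 0.41), and Ifngr2 was at 0.13 (SE 0.09). Of 8 nucleases and RNA editors that limit self nucleic acid 3 were higher and 5 lower, with a median of −0.11 (−0.01 without WT K090 or KO K089, −0.22 without KO L078). Rnaseh2c, a subunit of RNase H2, was at 15.0, 11.1 and 16.1 scaled CPM in WT and 20.4, 16.1 and 19.3 in KO libraries, a log2 fold change of 0.40 (SE 0.17, 95% interval −0.0039 to 0.81), and Rnaset2a was at −0.45 (SE 0.25), with the near-identical copy Rnaset2b able to share its reads.

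**Figure D4:**
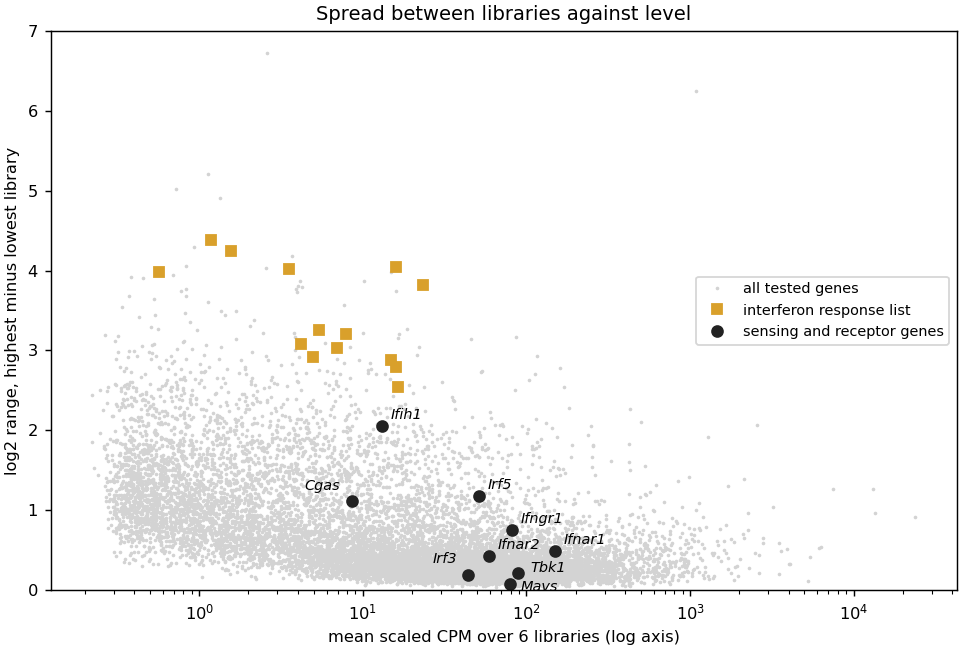
Log2 range over the 6 libraries (highest minus lowest) against mean scaled CPM on a log axis, for all 13483 tested genes in grey, the 14 interferon response genes as squares and the 9 tested genes as black circles. The squares lie between 2.54 and 4.38, Ifih1 is at 2.05, and Irf3, Tbk1 and Mavs are at 0.18, 0.21 and 0.07, below the median gene at 0.42.

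The ranges placed the 9 genes across the whole distribution. Ifih1 had a log2 range of 2.05 (percentile 96.3 of all tested genes), followed by Irf5 with 1.17 (83.6), Cgas with 1.11 (82), Ifngr1 with 0.74 (69.9), Ifnar1 with 0.48 (55.6) and Ifnar2 with 0.42 (50). Below the median gene were Tbk1 with 0.21 (percentile 17.8), Irf3 with 0.18 (13.3) and Mavs with 0.07 (0.497).

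The genes whose centred log2 CPM came closest were sought among 13474 other tested genes over the 6 libraries, by the root mean square difference. For Ifih1 they were Mndal (0.0407 log2) and Gbp9 (0.0681), for Cgas Fbxo48 (0.0335) and Asf1b (0.0454), and for Irf5 Syt11 (0.0349) and Arhgap22 (0.0474). The receptor chains came closest to BC005537 (0.0300) and Arhgap12 (0.0318) for Ifnar1, Cbl (0.0270) and Sh3bp1 (0.0303) for Ifnar2, and Mtmr12 (0.0319) and Cfp (0.0426) for Ifngr1. Tbk1 came closest to Sqstm1 (0.0116) and Jkamp (0.0123), Irf3 to Ints12 (0.0142) and Trim41 (0.0162), and Mavs to Zfp638 (0.0134) and Adgrl2 (0.0136). None of these 18 was one of the 14 interferon response genes, but the measure depends on the size of the deviations as well as their order. Those 14 had log2 ranges from 2.54 to 4.38, and the 9 genes had at most 2.05. Their absence here therefore does not show that their order across libraries differed. Mndal is one of the listed genes of DNA sensing.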

How the data were processed

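RNA was sequenced on an Illumina NovaSeq instrument, and per the labels' processing notes reads were converted with bcl2fastq 2.20.0.422, referred to mm10 and compared with edgeR 3.30.3. Not given in the sources used here are the aligner, the counter, its strand setting and its annotation. Deposited by the authors were whole-number read counts of 22601 gene symbols in 6 libraries, not normalized, beside columns of their own comparison (log2 fold change, mean log CPM, likelihood ratio, p and FDR), which were not used. A further list of the first genes of the same table was not used. Headings gave each column's genotype, and 0 columns belonged to other samples. The titles call the libraries biological replicates, and the headings give each its own animal number.

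The test was edgeR 4.0.16 in R 4.3.3 (filterByExpr defaults, TMM, glmQLFit, glmQLFTest) for genotype alone, with p adjusted by Benjamini-Hochberg over 13483 genes and called below 0.05. The biological coefficient of variation was 20.8% and the prior degrees of freedom 2.35. Intervals are 95% intervals of the fit, and a count of 0 was allowed 3 counts, for counting error only, since PCR copies are not separate molecules. Log2 CPM for deviations and ranges used a prior count of 2. Gene places and exon lengths are from GENCODE M21 (GRCm38, the build called mm10 in the notes) and promoter windows from RefSeq GRCm38.p6. Alternatives were DESeq2 1.42.0 (size factors, Wald test), upper quartile scaling, no filter, at least 1 CPM in 3 libraries, edgeR's likelihood ratio test, a robust fit, an absolute log2 fold change over 1.5, the median of the interferon response list as a covariate, each library left out and, added after seeing the data, a term for the letter of the animal number. The genes and lists were chosen with earlier results of these data known. Named beside the 10 genes were Slc37a2, the 2 genes of each pathway list with the largest absolute log2 fold change, Sting1, Ddx58, Irf7 and Ifngr2 (1 further gene of this rule is not reported here), the 3 interferon response genes of highest mean level, and the 2 genes closest to each in pattern.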

Additional observations from a re-analysis of the deposited data

How the results depend on the processing

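No paired analysis was possible because the column headings carry no replicate numbers. 0 of the 9 tested genes, 0 of the other pathway genes and 0 of the interferon response genes were called under any alternative run, with the lowest adjusted p of the 9 at 0.248 (without KO library L078). The fit with the interferon response median as a covariate could not test the interferon response genes, because that median was taken from them. Over all genes 1 was called, and 2 without the filter, with edgeR's likelihood ratio test and with DESeq2's Wald test, and the cause was not tested. Counted once per gene and alternative fit, log2 fold changes of single genes changed sign in 22 cases and kept it in 113. With DESeq2's size factors Irf3 came to 0.004 and Mavs to 0.0043 log2, and with its Wald test to 0.0032 and 0.0035. With the interferon response median as a covariate Ifnar1 came to 0.0655, Ifnar2 to 0.0725, Ifngr1 to 0.0946, Irf5 to 0.0473 and Tbk1 to −0.0243 log2, while Ifih1 came to −0.0533 from −0.5667 and Cgas to −0.0709 from −0.3151 with no change of sign, and the cause was not tested. With single libraries left out, the range was −0.1862 to 0.0387 for Ifnar1, −0.1791 to 0.0624 for Ifnar2, −0.381 to 0.017 for Ifngr1, −0.0477 to 0.0234 for Irf3, −0.0176 to 0.0631 for Tbk1 and −0.0123 to 0.0186 for Mavs. Ifih1, Cgas and Irf5 stayed below 0 in these fits, from −1.1195 to −0.1053, −0.6345 to −0.0579 and −0.6426 to −0.0133. With 3 libraries per genotype, the widest intervals, those of Ifih1, Irf5 and Cgas, limited what could be seen, and for Ifnb1 the depth did.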
